A study of Mus musculus with 12 samples.

Results

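The MHC class II presentation genes are described here in macrophages of the mouse aorta and of adipose tissue, sorted by surface LYVE-1. The 10 members were chosen by name and role. They are the classical beta chains (H2-Ab1, H2-Eb1) and alpha chain (H2-Aa), the invariant chain Cd74, the DM chains for peptide loading (H2-DMb1, H2-DMb2, H2-DMa), the DO chains (H2-Ob, H2-Oa) and the transactivator Ciita. They are 10 of the 46517 genes in the count table, and all 10 were among the 14216 genes that passed the filter on low counts.

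MHC class II molecules are pairs of an alpha and a beta chain that carry peptides of engulfed protein to the cell surface, where CD4+ T cells read them. New pairs are held by the invariant chain until endosomal proteases cut it down, and DM then exchanges its last fragment for a peptide, a step that DO restrains. Transcription of these genes is governed by CIITA, which does not bind DNA itself but is recruited by factors sitting on the X and Y boxes of their promoters. In tissue macrophages the level of class II is known to vary widely between subsets.

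Aortas of 30 adult wild-type C57/BL6 mice were used, and fat, both subcutaneous and epididymal, of 20. All were sorted as viable CD45+ CD64+ MerTK+ CD11b+ F4/80+ macrophages, and LYVE-1, a hyaluronan receptor, divided them into 4 groups of 3 libraries: aorta LYVE1+, aorta LYVE1-, fat LYVE1+ and fat LYVE1-. RNA (2 ng) was made into unstranded full-length Smart-seq2 libraries. No source used here says whether the libraries of a group were separate pools of mice, so p-values measure the spread between these libraries, which may be technical. In such bulk samples, fewer cells that express a gene and less RNA per cell cannot be told apart.

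Libraries held 5049936 to 29792301 counts. The 6 genes of the sort were detected in every library, and Lyve1 was at 2044 to 2807 CPM in aorta LYVE1+ against 868.2 to 1323 CPM in aorta LYVE1- libraries (log2 fold change 1.31, edgeR adjusted p = 0.108). Its level was 1497 to 2193 CPM in fat LYVE1+ against 230.1 to 610.9 CPM in fat LYVE1- libraries (2.04, edgeR adjusted p = 0.00383). CPM are counts scaled to a common library size with TMM factors. Fat libraries 1 of both sorts stood apart, with mitochondrial transcripts at 8.85% of counts in fat LYVE1+ library 1 and 12.1% in fat LYVE1- library 1, against 1.79% to 3.2% in the other 10 libraries. Erythroid markers, mainly hemoglobin chains, reached 25100 CPM in total in the first of these and 5210 CPM in the second, against 1.8 to 1400 CPM elsewhere. Results of members that rest on these 2 libraries are given with and without them. Tests of other genes are given with all 12 libraries only.

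Of the members, 8 lie in the class II region of chromosome 17, between 34092340 and 34316674 of GRCm38. RefSeq promoter sequence on GRCm38.p6 was at hand for 7 of the 10. Windows of the 150 bases before the RefSeq start are shown for 4 of them, because the X and Y boxes are what class II genes share whichever chain they encode. The capitals mark AAC and TGATG with 3 bases between, a shortened X box, and GATTGG, the core of the Y box. These letters were chosen with the promoters in view.
H2-Eb1 (chr17:34305717-34305866, plus strand): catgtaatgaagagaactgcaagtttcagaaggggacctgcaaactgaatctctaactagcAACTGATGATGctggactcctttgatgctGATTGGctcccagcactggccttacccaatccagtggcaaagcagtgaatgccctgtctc
H2-DMb2 (chr17:34145099-34145248, plus strand): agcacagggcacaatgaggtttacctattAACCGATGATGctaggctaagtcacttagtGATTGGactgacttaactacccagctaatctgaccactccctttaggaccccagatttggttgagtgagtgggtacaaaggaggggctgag
H2-Ob (chr17:34238755-34238904, plus strand): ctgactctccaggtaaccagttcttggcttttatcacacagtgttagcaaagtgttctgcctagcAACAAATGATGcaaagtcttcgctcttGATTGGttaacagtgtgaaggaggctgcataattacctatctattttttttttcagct
H2-Aa (chr17:34287824-34287973, minus strand): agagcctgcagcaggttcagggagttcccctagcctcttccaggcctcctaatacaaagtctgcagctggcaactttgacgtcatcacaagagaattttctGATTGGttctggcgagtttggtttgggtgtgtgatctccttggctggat

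The X and Y letters stood in the same order in H2-Eb1, H2-DMb2 and H2-Ob, with 18, 19 and 16 bases between them. H2-DMb1 had the pair too, 19 bases apart, in a window that an exon of the GENCODE annotation overlaps by 119 bases. Of these letters, H2-Aa and H2-Oa held GATTGG alone, 49 and 44 bases before the start. Neither of the windows listed for H2-DMa had a match within 150 bases. Over all 32851 promoter windows of 250 bases, searched on both strands, 0.539% held the X letters and 14.6% held GATTGG. The pair in this order within 40 bases was found in 6 of them (0.0183%): the 4 members above, Cic and 1700048F04Rik. A match describes letters and does not show that a factor was bound. A window without a match may still hold an X or Y box that is spelled otherwise.

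The first comparison asked how class II transcripts differ with surface LYVE-1 in the aorta. Of the 10 members, 7 were lower in aorta LYVE1+ than in aorta LYVE1- libraries: Cd74, the 3 classical chains, H2-DMa, H2-DMb1 and Ciita, by 5.05-fold to 27.3-fold. Of all genes tested, 0.429% were called lower, where a call is a Benjamini-Hochberg adjusted p below 0.05 in edgeR's quasi-likelihood test. The members took 0.212%, 0.305% and 0.334% of all counts in aorta LYVE1+ libraries, against 3.92%, 4.34% and 3.98% in aorta LYVE1- libraries. By count Cd74 ranked 100, 64 and 68 among all genes in aorta LYVE1+ libraries, and 1, 1 and 2 in aorta LYVE1- libraries.

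**Figure D1:**
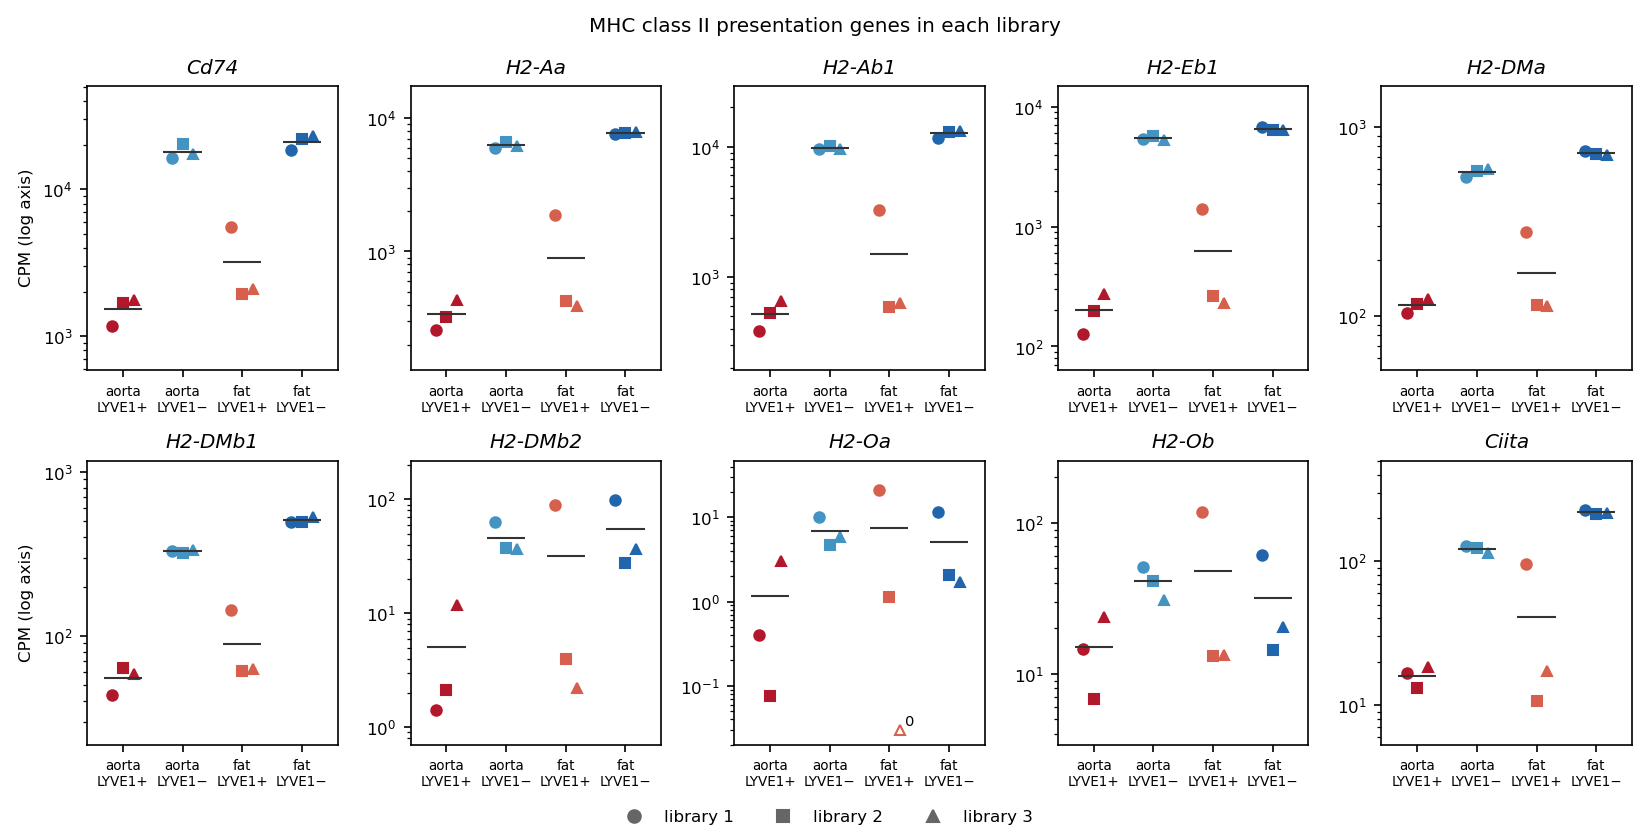
Level of each member in every library, in CPM on a log axis, by tissue and LYVE1 sort; lines are group means, symbols give the library number and an open symbol marks a library with no counts. The aorta LYVE1+ libraries lie below the aorta LYVE1- libraries for all 10 members, while fat LYVE1+ library 1 lies above the other fat LYVE1+ libraries in every panel.

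H2-Eb1 (ENSMUSG00000060586.10), the beta chain of I-E, had the largest fold change of the members. It had 127.2, 197.6 and 275.1 CPM in aorta LYVE1+ libraries, against 5423, 5661 and 5289 CPM in aorta LYVE1- libraries (log2 fold change -4.77, SE 0.62, edgeR adjusted p = 0.00478). C57BL/6 mice carry no functional I-E alpha gene, and its remnant H2-Ea-ps had at most 4 counts in any library. H2-Ab1 (ENSMUSG00000073421.5), the beta chain of I-A, had 385.6, 527 and 656.1 CPM in aorta LYVE1+ libraries, against 9493, 10130 and 9537 CPM in aorta LYVE1- libraries (log2 fold change -4.22, SE 0.57, edgeR adjusted p = 0.00574). Its alpha partner H2-Aa (ENSMUSG00000036594.13) had 259.2, 323.7 and 437 CPM in aorta LYVE1+ libraries, against 5947, 6606 and 6126 CPM in aorta LYVE1- libraries (log2 fold change -4.20, SE 0.52, edgeR adjusted p = 0.00325). The lowest aorta LYVE1- library was over every aorta LYVE1+ library for each chain, a gap far wider than the spread within either group.

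Cd74 (ENSMUSG00000024610.13), on chromosome 18 (60803848 to 60812652), had 1173, 1683 and 1748 CPM in aorta LYVE1+ libraries, against 16370, 20300 and 17380 CPM in aorta LYVE1- libraries. Its log2 fold change was -3.55 (SE 0.37, edgeR adjusted p = 0.00141), smaller in size than for the chains it escorts, a difference that was not tested. The members below the call were the low ones. H2-DMb2, H2-Oa and H2-Ob gave -3.19, -2.57 and -1.44, with standard errors of 1.2, 1.5 and 0.78 and edgeR adjusted p of 0.309, 0.542 and 0.524. The 3 aorta LYVE1+ libraries nevertheless lay below all aorta LYVE1- libraries for all 10 members, where 11.3% of genes tested showed this. The median log2 fold change of the members was -3.06, beside -0.0135 over all genes tested.

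The library identifiers begin with RMM or RHH, and the labels do not say what the prefix stands for. In the aorta it nearly coincides with the sort: LYVE1+ libraries 1 and 2 carry RMM, while LYVE1+ library 3 and all LYVE1- libraries carry RHH. With the prefix in the model none of the 7 calls held (edgeR adjusted p 0.23 to 0.8), with log2 fold changes from -2.22 for H2-DMa to -4.31 for H2-Eb1. That fit called 2 of all 16486 genes tested in this comparison, so the loss of the calls is not particular to the members. Within RHH, the single LYVE1+ library was 10.3-fold lower than the mean of the 3 LYVE1- libraries for Cd74, 19.8-fold for H2-Eb1 and 6.64-fold for Ciita, given without a test since 1 library is of LYVE1+ cells. The fit with the prefix rests on this same LYVE1+ library for its aortic difference, so these folds are not a separate result. Fat libraries all carry RMM.

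In fat the same question gave the same 7 members as lower in LYVE1+ libraries, by 4.33-fold to 10.4-fold, where 2.1% of genes tested were called lower. The fat LYVE1+ libraries were split: library 1 gave the members 1.32% of all counts, and libraries 2 and 3 gave 0.328% and 0.343%. Fat LYVE1- libraries gave them 4.66%, 4.95% and 5.18%. The 7 called members were also those without overlap between the groups, which held for 9.83% of genes tested in this direction. The median over the members was -2.48, beside 0.00482 over all genes tested.

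Cd74 had 5524, 1944 and 2107 CPM in fat LYVE1+ libraries, against 18480, 22000 and 23060 CPM in fat LYVE1- libraries (log2 fold change -2.73, SE 0.36, edgeR adjusted p = 0.00115). H2-Ab1 had 3265, 588.9 and 625.5 CPM in fat LYVE1+ libraries, against 11560, 13030 and 13250 CPM in fat LYVE1- libraries (log2 fold change -3.08, SE 0.54, edgeR adjusted p = 0.00682). H2-Aa followed its partner, with 1864, 425.1 and 388.8 CPM in fat LYVE1+ libraries, against 7619, 7740 and 7876 CPM in fat LYVE1- libraries (log2 fold change -3.12, SE 0.50, edgeR adjusted p = 0.00374). Fat LYVE1+ library 1 was over both other LYVE1+ libraries and under all LYVE1- libraries for each of these genes. H2-Eb1 had 1406, 261.3 and 229.7 CPM in fat LYVE1+ libraries, against 6784, 6365 and 6466 CPM in fat LYVE1- libraries (log2 fold change -3.37, SE 0.58, edgeR adjusted p = 0.00586).

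Without fat LYVE1+ library 1 these folds were larger in size. H2-Eb1 then gave -4.73, H2-Ab1 -4.37, H2-Aa -4.25, Cd74 -3.38 and Ciita -3.97, with edgeR adjusted p from 8.7e-07 to 2.2e-06. Without both fat libraries 1 they gave -4.71, -4.43, -4.26, -3.47 and -3.95 in the same order. With the fat groups alone in the fit, 3 calls held (Cd74, H2-DMa and H2-DMb1), and H2-Aa, H2-Ab1, H2-Eb1 and Ciita had edgeR adjusted p of 0.054, 0.076, 0.066 and 0.17. That fit called 206 of 12585 genes tested, against 558 of 14216 in the main fit.

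**Figure D2:**
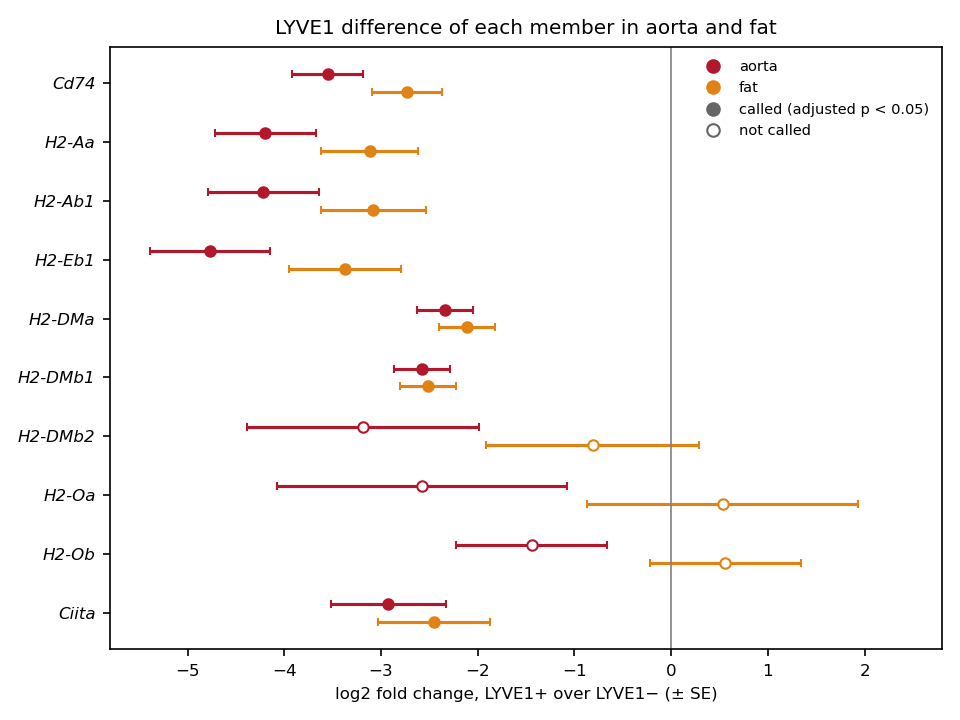
Log2 fold change of LYVE1+ over LYVE1- for each member, in aorta and in fat, with the standard error as bars; filled points passed the call at adjusted p below 0.05. The 7 called members are the same in both tissues and run from -4.77 to -2.11, while the bars of H2-DMb2, H2-Oa and H2-Ob are the widest.

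DM is the editor of class II peptides, an H2-DMa chain paired with a beta chain from H2-DMb1 or H2-DMb2. H2-DMa (ENSMUSG00000037649.9) had 104.1, 116.5 and 124.2 CPM in aorta LYVE1+ libraries, against 549.9, 585.3 and 604.2 CPM in aorta LYVE1- libraries (log2 fold change -2.33, SE 0.29, edgeR adjusted p = 0.00302). In fat it had 278.5, 115.3 and 113.8 CPM in LYVE1+ libraries, against 752.9, 720 and 718.4 CPM in LYVE1- libraries (log2 fold change -2.11, SE 0.29, edgeR adjusted p = 0.00135). Its exons share 360 bases with Brd2 on the other strand, and unstranded reads there could belong to either gene.

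H2-DMb1 (ENSMUSG00000079547.3) had 43.38, 64.11 and 58.49 CPM in aorta LYVE1+ libraries, against 331.7, 319.6 and 334.8 CPM in aorta LYVE1- libraries (log2 fold change -2.57, SE 0.29, edgeR adjusted p = 0.00198). Fat LYVE1+ libraries had 144.5, 61.01 and 62.79 CPM of it, against 496.5, 495.8 and 532.5 CPM in fat LYVE1- libraries (log2 fold change -2.51, SE 0.29, edgeR adjusted p = 0.000552). Both DM chains were therefore lower with LYVE-1 in each tissue, by folds of 4.33 to 5.95, with no overlap between libraries.

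H2-DMb2 (ENSMUSG00000037548.13), the second DM beta gene, was low and uneven. It had 1.404, 2.105 and 11.81 CPM in aorta LYVE1+ libraries, against 63.6, 37.68 and 36.8 CPM in aorta LYVE1- libraries. Fat LYVE1+ libraries had 90.21, 3.986 and 2.217 CPM, against 99.42, 27.38 and 36.93 CPM in fat LYVE1- libraries (log2 fold change -0.81, SE 1.1, edgeR adjusted p = 0.786). Without fat LYVE1+ library 1 it was called lower in both tissues, at -4.11 in fat (edgeR adjusted p = 0.013) and -3.19 in the aorta (0.036). In fat H2-DMb2 gave -3.36 without both fat libraries 1 (edgeR adjusted p = 0.022). Without fat LYVE1- library 1 alone it gave -0.06 there and was not called. H2-DMb1 and H2-DMb2 share sequence: 22.3% of the 51-base stretches in H2-DMb1 transcripts also occur in H2-DMb2, a length chosen to match the 51 read cycles. How the authors counted reads that fit both is not given in the sources used here, so the split between them is uncertain. Summed to 1 feature they were called lower in the aorta (-2.63, edgeR adjusted p = 0.013) and in fat (-2.22, 0.0087).

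DO, the partner that restrains DM, is known chiefly from B cells and some dendritic cells. Its alpha gene H2-Oa (ENSMUSG00000024334.8) had 0.4012, 0.07516 and 2.988 CPM in aorta LYVE1+ libraries, against 10.1, 4.714 and 5.769 CPM in aorta LYVE1- libraries. In fat it had 21.31, 1.127 and 0 CPM in LYVE1+ libraries, against 11.39, 2.061 and 1.692 CPM in LYVE1- libraries; having no counts in LYVE1+ library 3 still allows up to 0.302 CPM (3 counts). The aortic groups stood apart for H2-Oa, while in fat LYVE1+ library 1 was the highest of all and the groups overlapped. The beta gene H2-Ob (ENSMUSG00000041538.14) had 14.59, 6.765 and 23.69 CPM in aorta LYVE1+ libraries, against 50.69, 40.97 and 30.79 CPM in aorta LYVE1- libraries. Fat LYVE1+ libraries had 117.1, 13 and 13.2 CPM of H2-Ob, against 61.03, 14.43 and 20.31 CPM in fat LYVE1- libraries, again highest in LYVE1+ library 1.

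Neither DO gene was called in any of the 5 comparisons, where 0.155% to 3.93% of genes tested were called. In fat their log2 fold changes were 0.53 (SE 1.4, edgeR adjusted p = 0.9) for H2-Oa and 0.56 (SE 0.78, edgeR adjusted p = 0.801) for H2-Ob. Both were negative without fat LYVE1+ library 1, at -3.08 and -1.27. They were smaller in size without both fat libraries 1, at -1.68 and -0.4. H2-Oa shares 321 exon bases with the antisense gene BC051537.

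B cell markers were read beside H2-DMb2, H2-Oa and H2-Ob. Of 8 markers none was called in any comparison, where 0.155% to 3.93% of genes tested were called. Their sum was 742 to 988 CPM in aorta LYVE1+, 712 to 1030 CPM in aorta LYVE1-, 896 to 1390 CPM in fat LYVE1+ and 602 to 690 CPM in fat LYVE1- libraries. Ighm made up most of it, at 400.2 to 977 CPM in every library. The other 7 markers summed to 21, 11.3 and 89.6 CPM in aorta LYVE1+ libraries, against 145, 168 and 84.8 CPM in aorta LYVE1- libraries. In fat they summed to 559, 20.5 and 25.4 CPM in LYVE1+ libraries, against 202, 45.1 and 47.6 CPM in LYVE1- libraries. Fat LYVE1+ library 1 was thus highest both for these markers and for H2-Oa and H2-Ob. Their part in the values of H2-DMb2, H2-Oa and H2-Ob was not tested. In aorta LYVE1+ library 2, which had the lowest sum of the 7 markers, Ms4a1, Pax5 and Blk had no counts and H2-Ab1 was at 527 CPM. In fat LYVE1+ library 1, which had the highest sum, H2-Ab1 was at 3265 CPM. The part of B cells in the values of H2-Ab1 was not tested either.

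**Figure D3:**
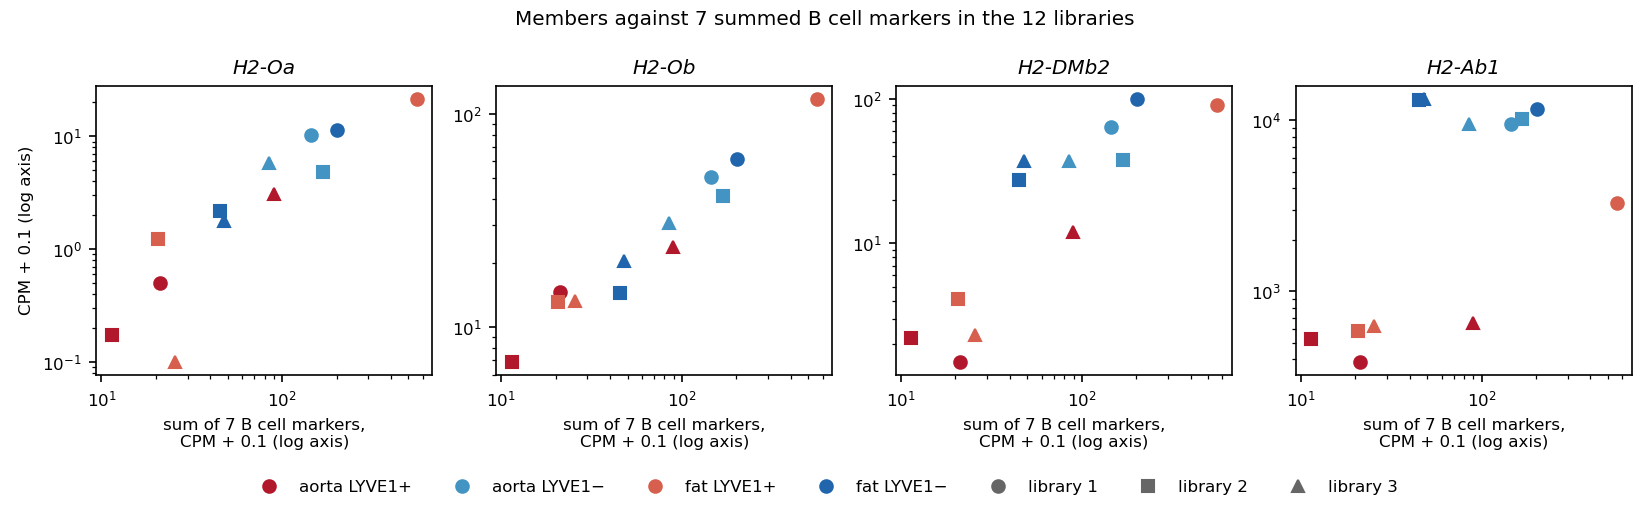
Level of H2-Oa, H2-Ob, H2-DMb2 and H2-Ab1 against the sum of the 7 B cell markers other than Ighm in the 12 libraries, both in CPM plus 0.1 on log axes, coloured by group and with symbols for the library number. Fat LYVE1+ library 1 has the highest marker sum (559 CPM) and the highest H2-Oa and H2-Ob. H2-Ab1 is lower in all LYVE1+ than in all LYVE1- libraries, and among LYVE1+ libraries it is highest in fat library 1 (3265 CPM).

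Ciita (ENSMUSG00000022504.9, chromosome 16, 10480059 to 10528418), the transactivator, was low in absolute terms. It had 16.6, 13.08 and 18.29 CPM in aorta LYVE1+ libraries, against 127.4, 122.9 and 113.9 CPM in aorta LYVE1- libraries (log2 fold change -2.92, SE 0.59, edgeR adjusted p = 0.049). In fat it had 95.78, 10.57 and 17.34 CPM in LYVE1+ libraries, against 228.1, 212.8 and 217.1 CPM in LYVE1- libraries (log2 fold change -2.45, SE 0.58, edgeR adjusted p = 0.032). The groups did not overlap in either tissue, but the call was close to the threshold. Leaving out single libraries ended it in 8 of 12 fits in the aorta (adjusted p up to 0.26) and in 7 of 12 fits in fat (up to 0.13), with log2 fold changes of -3.03 to -2.8 in the aorta and -3.97 to -2 in fat. Its exons share 329 bases with Dexi on the opposite strand.

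Levels per kilobase of exon allow the members to be set beside each other. In aorta LYVE1+ libraries Cd74 averaged 914 ± 187 CPM per kb (SD, n = 3), H2-Ab1 204 ± 52.7, H2-Eb1 103 ± 38.1 and H2-Aa 89.5 ± 23.7, the last pair within its spread. H2-DMa and H2-DMb1 were level at 33.3 ± 2.95 and 32.9 ± 6.38 CPM per kb, as were H2-DMb2 at 2.92 ± 3.33 and H2-Ob at 2.79 ± 1.57, followed by Ciita at 1.68 ± 0.279 and H2-Oa at 0.821 ± 1.13. The 3 classical chains and Cd74 kept this order in the aorta LYVE1- libraries. There Cd74 averaged 10700 ± 1210 CPM per kb (SD, n = 3), followed by H2-Ab1 at 3780 ± 138, H2-Eb1 at 2810 ± 96.8 and H2-Aa at 1640 ± 89.6. H2-DMb1 at 196 ± 4.78 and H2-DMa at 168 ± 8 CPM per kb came next, then H2-DMb2 at 26.3 ± 8.72, Ciita at 12.7 ± 0.724, H2-Ob at 7.59 ± 1.85 and H2-Oa at 4.88 ± 2.03. The means of the DO genes did not differ beyond their spread between libraries. Within each aorta LYVE1- library H2-Ob was above H2-Oa, at 9.423, 7.615 and 5.723 against 7.178, 3.351 and 4.1 CPM per kb.

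The I-A pair kept a steady ratio. H2-Ab1 over H2-Aa, per length, was 2.2 to 2.41 in aorta LYVE1+, 2.27 to 2.36 in aorta LYVE1-, 2.05 to 2.59 in fat LYVE1+ and 2.24 to 2.49 in fat LYVE1- libraries. Ratios of Cd74, H2-Eb1 and the main DM chains to the I-A chains differed between the aortic groups without overlap, as a description with no test. H2-DMb2 over H2-DMb1 overlapped, at 0.0311 to 0.194 in aorta LYVE1+ and 0.106 to 0.184 in aorta LYVE1- libraries, and so did H2-DMb1 over H2-DMa. Cd74 over H2-Ab1 was 4.65, 4.89 and 4.07 in aorta LYVE1+ libraries, against 2.64, 3.07 and 2.79 in aorta LYVE1- libraries. H2-DMa over H2-Aa was 0.313 to 0.442 in aorta LYVE1+ and 0.0976 to 0.109 in aorta LYVE1- libraries. H2-DMb1 over H2-Ab1 was 0.136 to 0.186 in aorta LYVE1+ and 0.0482 to 0.0536 in aorta LYVE1- libraries. Aorta LYVE1+ libraries thus had less of each of these genes, but more Cd74 and DM transcript for each classical chain transcript. H2-Eb1 over H2-Ab1 ran the other way, at 0.436 to 0.554 in aorta LYVE1+ and 0.733 to 0.755 in aorta LYVE1- libraries.

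In fat, LYVE1+ library 1 differed from LYVE1+ libraries 2 and 3 in the ratios of Cd74 and DM to the classical chains, but not in that of H2-Eb1 to H2-Ab1. Cd74 over H2-Ab1 was 2.59, 5.05 and 5.15 in fat LYVE1+ libraries, against 2.44, 2.58 and 2.66 in fat LYVE1- libraries, so that library 1 fell inside the LYVE1- range. H2-DMb1 over H2-Ab1 was 0.0676, 0.158 and 0.153 in fat LYVE1+ libraries, against 0.0656, 0.0581 and 0.0614 in fat LYVE1- libraries. H2-DMa over H2-Aa was 0.165, 0.299 and 0.322 in fat LYVE1+ libraries, against 0.109, 0.102 and 0.1 in fat LYVE1- libraries. H2-Eb1 over H2-Ab1 was 0.485 to 0.586 in fat LYVE1+ libraries, library 1 among them, against 0.644 to 0.775 in fat LYVE1- libraries. Ciita over H2-Ab1 was 0.668% to 1.16% in aorta LYVE1+ and 0.322% to 0.361% in aorta LYVE1- libraries, and 0.483% to 0.79% in fat LYVE1+ against 0.44% to 0.531% in fat LYVE1- libraries.

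**Figure D4:**
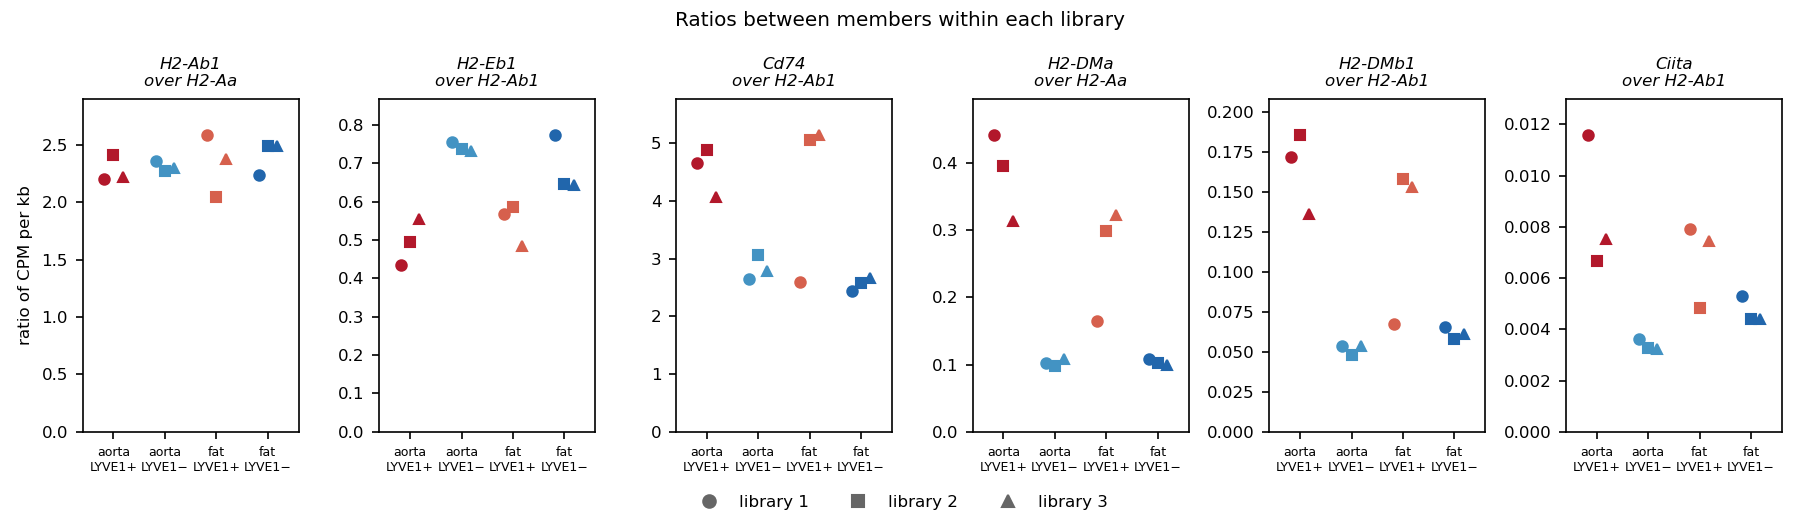
Ratio of CPM per kilobase between pairs of members within each library, by tissue and LYVE1 sort, with symbols for the library number and axes from 0. H2-Ab1 over H2-Aa lies between 2.05 and 2.59 everywhere, while Cd74 and both DM chains relative to the classical chains are highest in aorta LYVE1+ libraries and fat LYVE1+ libraries 2 and 3. Fat LYVE1+ library 1 lies near the LYVE1- libraries for Cd74 and H2-DMb1. For H2-DMa over H2-Aa it lies between them and the other LYVE1+ libraries, at 0.165.

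The tissues were then compared with each other. The interaction asks whether the LYVE1 difference itself differs between aorta and fat, and it called 0 of 10 members (edgeR), with 0 at an unadjusted p under 0.05 and 0 by DESeq2, where 0.155% of all genes were called. All 10 interaction values were negative, that is, the log2 fold change was lower in the aorta, from -0.06 for H2-DMb1 to -3.1 for H2-Oa. Cd74 gave -0.82 with a 95% interval of -1.85 to 0.2, and H2-Ab1 -1.14 with -2.68 to 0.4, so differences of that size were not resolved. Without fat LYVE1+ library 1, 7 values turned positive, at 0.05 to 1.05 (all but Cd74, H2-Eb1 and H2-Ob).

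Among LYVE1+ cells, aorta over fat called 0 of 10 members (edgeR), where 3% of genes tested were called, with 7 at an unadjusted p under 0.05 and 1 by DESeq2. All 10 values were negative with a median of -1.45, beside -0.015 over all genes, and the groups did not overlap for Cd74 alone (aorta 1173 to 1748 CPM, fat 1944 to 5524 CPM), where 9.29% of genes tested lay lower without overlap. Cd74 gave -1.06 (SE 0.34, edgeR adjusted p = 0.134). With no filter on low counts, 7 members were called, where 820 of 25331 genes tested were called. The values rested on fat LYVE1+ library 1: without it 5 were negative, from -0.17 for H2-DMb1 to -0.40 for Cd74. The others were 0 for H2-DMa, 0.2 for H2-Ob and Ciita, 0.68 for H2-DMb2 and 0.97 for H2-Oa.

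Among LYVE1- cells, aorta over fat also called 0 of 10 (edgeR), where 2.48% of genes tested were called, with 1 at an unadjusted p under 0.05 and 0 by DESeq2. The median was -0.29, beside -0.00408 over all genes. The 3 aorta libraries lay below the 3 fat libraries without overlap for the 3 classical chains, Ciita, H2-DMa and H2-DMb1, which 9.9% of genes tested did. These aorta libraries all carry RHH and these fat libraries all carry RMM, so tissue and identifier prefix cannot be told apart here. Ciita gave -0.85 (95% interval -2.03 to 0.32) and H2-DMb1 -0.63 (-1.22 to -0.04), with edgeR adjusted p of 0.504 and 0.297. Both were called without fat LYVE1+ library 1 (0.017 and 0.031), which is not among the libraries compared but adds to the spread estimated in the fit. With the prefix in the model they gave -1.14 and -0.75 and were not called (edgeR adjusted p of 0.95 and 0.9). That fit called 7 of 16486 genes tested. From high to low, the means of these 6 members and Cd74 thus ran fat LYVE1-, aorta LYVE1-, fat LYVE1+, aorta LYVE1+, with aorta and fat of the same sort not separated by the test. The order of the LYVE1+ groups rested on fat LYVE1+ library 1 for H2-DMa and Ciita, whose values without it are given above.

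Few genes of the other class II lists were called, and at the shares over all genes given below few would be in a short list of unrelated genes. Of 8 genes of antigen and invariant chain breakdown (Ctss, Ctsl, Ctsb, Ctsd, Ctsh, Ctsz, Lgmn and the thiol reductase Ifi30), 0 were called in the aorta (edgeR), where 0.542% of genes tested were called either way. Their median log2 fold change was 0.22. Ctss, the cathepsin that finishes the invariant chain in macrophages and dendritic cells, averaged 1545 ± 131 CPM in aorta LYVE1+ and 1646 ± 165 CPM in aorta LYVE1- libraries (log2 fold change -0.09, SE 0.17, edgeR adjusted p = 0.887). In fat 1 of the 8 was called, where 3.93% of genes tested were called either way. This was Ctsl, the cathepsin that does the same work in thymic epithelium, with 659.1 ± 254 CPM in fat LYVE1+ and 291.5 ± 76.2 CPM in fat LYVE1- libraries (SD, n = 3, log2 fold change 1.18, SE 0.28, edgeR adjusted p = 0.0326). The list's median in fat was 0.40. Its sum was 14500, 25200 and 26400 CPM in fat LYVE1+ libraries, against 11000, 17800 and 17300 CPM in fat LYVE1- libraries. LYVE1+ library 1 thus lay within the LYVE1- range.

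Of 5 genes of class II turnover (March1, March8, Cd83, Il10 and Sppl2a), none was called in the aorta and 1 in fat. Of all genes tested, 0.542% and 3.93% were called either way. Cd83, which shields surface class II from MARCH1, averaged 932.4 ± 144 CPM in fat LYVE1+ and 2343 ± 454 CPM in fat LYVE1- libraries (log2 fold change -1.33, SE 0.18, edgeR adjusted p = 0.00129). March1, the ubiquitin ligase that removes class II from the surface, gave 0.16 (SE 0.25) in the aorta and 0.27 (SE 0.25) in fat. In LYVE1+ cells Cd83 was higher in aorta than in fat (1962 ± 35.3 CPM in aorta against 932.4 ± 144 CPM in fat, log2 fold change 1.07, edgeR adjusted p = 0.00594). The members' values in that comparison were negative, but none was called, where 3% of genes tested were called. Those values rested on fat LYVE1+ library 1, as given above.

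None of the 7 factors that assemble on the X and Y boxes (Rfx5, Rfxap, Rfxank, Nfya, Nfyb, Nfyc and Creb1) was called in any of the 5 comparisons, where 0.155% to 3.93% of genes tested were called. Their medians were -0.18 in the aorta and 0.06 in fat, and the most abundant, Creb1, averaged 62.18 ± 9.36 CPM in aorta LYVE1+ and 80.35 ± 10.9 CPM in aorta LYVE1- libraries (log2 fold change -0.37, SE 0.16, edgeR adjusted p = 0.391). Nfyc, a subunit of the factor on the Y box, averaged 29.41 ± 4.81 CPM in aorta LYVE1+ and 28.44 ± 1.08 CPM in aorta LYVE1- libraries.

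Among 12 genes known to act on Ciita, 1 was called in the aorta and none in fat, where 0.542% and 3.93% of genes tested were called. Prdm1, a repressor of the Ciita promoters, was lower in aorta LYVE1+ (6.64 ± 5.4 CPM) than in aorta LYVE1- libraries (41.79 ± 11.3 CPM), with a log2 fold change of -2.66 (SE 0.47, edgeR adjusted p = 0.026). In fat it gave -1.81 (SE 0.47, edgeR adjusted p = 0.0539). Irf1, an activator of Ciita under interferon gamma, was lower in aorta than in fat LYVE1- libraries (337.4 ± 35.8 CPM in aorta against 599.6 ± 49.8 CPM in fat, log2 fold change -0.83, edgeR adjusted p = 0.0107). In that comparison tissue and identifier prefix coincide.

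H2-Eb2, a neighbouring beta gene of the I-E type that is not a member, was scarce. It had 0.2507, 0 and 0.5692 CPM in aorta LYVE1+ libraries, against 3.946, 2.001 and 5.647 CPM in aorta LYVE1- libraries (log2 fold change -3.77, SE 1.4, edgeR adjusted p = 0.321). In fat it had 5.566, 0.5199 and 0 CPM in LYVE1+ libraries, against 4.478, 1.374 and 0.6969 CPM in LYVE1- libraries.

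Class I presentation, which shows peptides made inside the cell, served as a contrast. Of 14 genes none was called in the aorta, where 0.542% of genes tested were called. Their median was -0.17, with a range of -0.71 to 0.19. In fat 1 was called, where 3.93% of genes tested were called. This was Tap1, a subunit of the peptide transporter, with 79.7 ± 16.1 CPM in LYVE1+ and 138.2 ± 10.8 CPM in LYVE1- libraries (log2 fold change -0.80, SE 0.15, edgeR adjusted p = 0.00991). H2-D1, a class I heavy chain with close copies that may share its reads, averaged 4391 ± 120 CPM in aorta LYVE1+ and 4561 ± 381 CPM in aorta LYVE1- libraries.

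**Figure D5:**
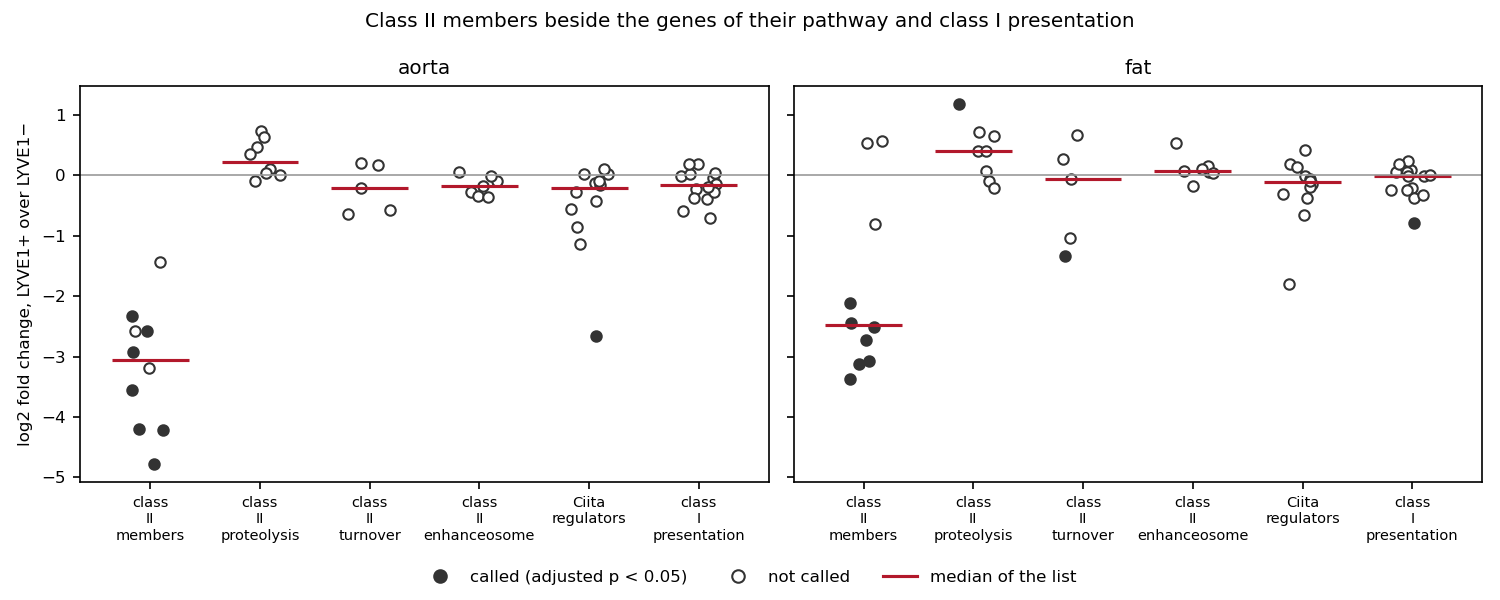
Log2 fold change of LYVE1+ over LYVE1- for each gene of 6 lists, in aorta (left panel) and fat (right panel); filled points passed the call, red lines are list medians. The class II members have medians of -3.06 and -2.48, and the other 5 lists have medians between -0.22 and 0.40.

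The 10 other genes named here had the profile closest to the mean of Cd74, H2-Aa, H2-Ab1 and H2-Eb1 over the 12 libraries, by the mean absolute difference of centred log2 CPM. Genes with a mean log2 CPM under 4 were left out. Lyz1, a lysozyme gene, came first at 0.61, followed by Cd52, a small surface glycoprotein of leukocytes, at 0.686, Gpr132, a receptor on macrophages and lymphocytes, at 0.715 and Ccr2, the chemokine receptor of monocytes, at 0.745. Axl, a receptor for dying cells, Aldh1a2, Plbd1, Tnip3, an inhibitor of NF-kB signalling, Rasgrp1, a Ras activator, and Ear2, a ribonuclease, followed at 0.787 to 0.871. Lyz1 and Ear2 have near-identical relatives, and their counts are uncertain for that reason. For scale, the members outside that mean profile stood at 0.48 for Ciita, 0.657 for H2-DMb1 and 0.796 for H2-DMa. These genes were picked on the same 12 libraries, so their levels are a description with no test. Plbd1, a lysosomal phospholipase-like protein, averaged 60.39 ± 4.85 CPM in aorta LYVE1+ and 346.3 ± 50.6 CPM in aorta LYVE1- libraries (SD, n = 3), and 167.8 ± 56.4 CPM in fat LYVE1+ and 629.3 ± 20.3 CPM in fat LYVE1- libraries. Aldh1a2, which makes retinoic acid, averaged 3.107 ± 2.06 CPM in aorta LYVE1+ and 45.74 ± 33.7 CPM in aorta LYVE1- libraries.

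Markers of other class II bearing cells were traced beside the members. Of 12 dendritic cell markers, 1 was called lower in the aorta (Clec9a, with no counts in any aorta LYVE1+ library) and 3 higher in fat (Cd209a, Siglech and Clec10a). Of all genes tested, 0.542% were called either way in the aorta and 3.93% in fat, which also applies to the marker lists that follow. Their sum was 848 to 940 CPM in aorta LYVE1+ against 793 to 991 CPM in aorta LYVE1- libraries. In fat it was 1300 to 1510 CPM in LYVE1+ against 780 to 851 CPM in LYVE1- libraries. Clec10a, Cd209a and Siglech made up most of the sum. By gene, 10 of 12 had a negative log2 fold change in the aorta (median -1.24), and in fat 6 were negative and 6 positive (median 0.06). Flt3, Clec9a and Itgae had no counts in aorta LYVE1+ libraries 1 and 2, while Clec9a reached 1.662 to 8.562 CPM and Flt3 2.374 to 12.64 CPM in aorta LYVE1- libraries. Ccr7, carried by migrating dendritic cells, was at 1.052 to 30.74 CPM in aorta LYVE1+ against 73.54 to 96.51 CPM in aorta LYVE1- libraries (edgeR adjusted p = 0.467). It was at 4.333 to 213.6 CPM in fat LYVE1+ against 29.34 to 232.2 CPM in fat LYVE1- libraries (edgeR adjusted p = 0.921). Its fat groups overlapped, and libraries 1 of both were the high ones.

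Of 5 monocyte markers, 4 could be tested. All 4 had negative log2 fold changes in the aorta (median -2.21), and 2 were negative and 2 positive in fat (median 0.13). Ccr2 was called lower in both tissues, and their sum was 10.6 to 22.5 CPM in aorta LYVE1+ against 155 to 301 CPM in aorta LYVE1- libraries. In fat it was 73.1 to 276 CPM in LYVE1+ against 652 to 790 CPM in LYVE1- libraries. Ccr2 made up most of the LYVE1- sums, with 223.5 ± 79.4 CPM in aorta LYVE1- and 670.2 ± 47.8 CPM in fat LYVE1- libraries.

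Of 10 T and NK cell, 9 eosinophil and mast cell, 7 endothelial and 5 erythroid markers, Prg2, an eosinophil granule protein, was called lower in the aorta and Prox1, a lymphatic factor, higher in fat. Eosinophil and mast cell markers summed to 2.49 to 13.7 CPM in aorta LYVE1+ against 49.3 to 86 CPM in aorta LYVE1- libraries. Endothelial markers, for the cells that line vessels, reached at most 44 CPM in any library. T and NK cell markers were at 253, 28.5 and 22.9 CPM in fat LYVE1+ libraries, against 124, 23.1 and 24.7 CPM in fat LYVE1- libraries, highest in libraries 1. The part of all these cell types in the members' values was not tested.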

How the data were processed

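RNA of 12 macrophage libraries was measured, 3 in each of 4 groups. The authors deposited 1 table of whole-number counts per gene; the submitters' processing notes name STAR 2.5.2b, featureCounts 1.5.0, edgeR 3.14.0 and GRCm38. The annotation release, the strand setting and the treatment of reads that fit several genes are not given in the sources used here. Gene IDs were matched to GENCODE M21, which named 46005 of 46517. Members and lists were chosen with earlier results of these data known. Groups were taken from the sample labels.

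From these counts, TMM factors, CPM and edgeR quasi-likelihood tests (edgeR 4.0.16, R 4.3.3) were computed on all 12 libraries in one fit, with 8 residual degrees of freedom, after edgeR's filter on low counts left 14216 genes. Tests are two-sided with Benjamini-Hochberg adjustment over all genes tested, and a call is an adjusted p below 0.05. The steps were tested on simulated data. Levels per length are CPM per kilobase of merged exons. Libraries of 5049936 to 29792301 counts limit the precision of the low members, and the limit for no counts covers counting error only. Replicate libraries differed by more than sampling noise.

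Named genes are all members, the called or else most abundant genes of each list, and the 10 nearest profiles. Ctss, March1 and H2-D1 were added for their roles after their values were seen. One B cell marker is not reported here. Same-numbered libraries deviated together in fat (correlations 0.49, 0.28 and 0.18) but not in the aorta (-0.044, -0.077 and -0.17). By that criterion the numbers pair only fat libraries 1 of both sorts. Fat libraries 2 and 3 were not told apart by it: LYVE1+ library 2 with LYVE1- library 3 gave 0.19, and LYVE1+ library 3 with LYVE1- library 2 gave 0.22. Alternatives were DESeq2 1.42.0, plain library size, no filter, other fits, the replicate block, the identifier prefix and left-out libraries. Promoter sequences are RefSeq's on GRCm38.p6.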

Additional observations from a re-analysis of the deposited data

How the results depend on the processing

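Of the alternatives tried, 1030 log2 fold changes of members kept direction and side of the threshold, 45 reversed, 29 passed it newly and 26 no longer passed it, and DESeq2 gave no adjusted p for 5. The 6 called members other than Ciita held in 12 of 12 fits that left out single libraries in both tissues, where 6 to 8 members were called in the aorta and 6 to 8 in fat. Of all genes tested, these fits called 23 to 210 in the aorta and 219 to 1025 in fat. Over all 23 alternatives, 0 to 10 members were called in the aorta: 0 with the identifier prefix in the model, 9 without both fat libraries 1 and 10 without those and aorta LYVE1+ library 3. Of all genes tested, these 3 fits called 2 of 16486, 566 of 14769 and 512 of 14471, against 77 of 14216 in the main fit. In fat 3 were called with only the groups compared in the fit, where 206 of 12585 genes tested were called. For aorta over fat in LYVE1+ cells, 7 were called with no filter on low counts, 1 by DESeq2 and 1 without both fat libraries 1 and aorta LYVE1+ library 3, an alternative chosen after seeing the data. Of all genes tested, these fits called 820 of 25331, 922 of 14216 and 649 of 14471. For aorta over fat in LYVE1- cells, tissue and identifier prefix coincide. There 1 was called with only the groups compared, 2 without both fat libraries 1, and 4 without those and aorta LYVE1+ library 3. Of all genes tested, these fits called 275 of 13251, 1024 of 14769 and 1065 of 14471. Leaving out single libraries gave 0 to 2 members, where 98 to 531 genes were called. DESeq2 gave Ciita no adjusted p (log2 fold change -2.94 in the aorta, -2.41 in fat). The causes were not tested.

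Reversed values are log2 fold changes. Single omissions are fits that left out 1 library each. In fat, LYVE1+ over LYVE1- for H2-Oa was -0.78 with the replicate block, -1.68 without both fat libraries 1, -3.08 without fat LYVE1+ library 1 and -1.68 without the 3 libraries above; H2-Ob was -0.4, -1.27 and -0.41 in the last 3. Single omissions gave -3.08 to 1.93 for H2-Oa and -1.27 to 1.42 for H2-Ob. The block changed no count of called members; with it Ciita in fat was -3.07. The interaction without both fat libraries 1 was 0.07 for H2-Aa, 0.22 for H2-Ab1, 0.32 for H2-DMa, 0.48 for H2-DMb1, 0.16 for H2-DMb2 and 1.03 for Ciita. Without fat LYVE1+ library 1 it was 0.05, 0.16, 0.34, 0.46, 0.92 and 1.05 for these and 0.51 for H2-Oa, the highest of their single omissions. The lowest were -1.42, -1.5, -0.42, -0.26, -3.91 and -0.93 for these and -5.23 for H2-Oa. Without the 3 libraries it was 0.02 for H2-Ab1, 0.25 for H2-DMa, 0.43 for H2-DMb1 and 0.92 for Ciita. With the block it was 0.05 for H2-DMb1 and 0.14 for Ciita, and H2-DMb1 was 0.04 with the prefix and 0.1 without aorta LYVE1+ library 1. Aorta over fat in LYVE1+ cells, without both fat libraries 1 and without fat LYVE1+ library 1 alike, was 0 for H2-DMa, 0.68 for H2-DMb2, 0.97 for H2-Oa, 0.2 for H2-Ob and 0.2 for Ciita, which was 0.1 without the 3 libraries. The lowest single omissions there were -0.75, -4.15, -4.77, -2.11 and -1.78 in the same order. In LYVE1- cells H2-DMb2 was 0.03 with the block, 0.51 without both fat libraries 1, 0.51 without fat LYVE1- library 1 and 0.52 without the 3 libraries, with -0.56 as the lowest single omission, and with the prefix H2-Oa was -3.05 and H2-Ob -0.77. Depth limits H2-Oa, which had no counts in 1 library.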
